A study of Mus musculus with 7 samples.

Results

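GATA2 occupied 780 sites that lay inside a protein-coding gene but outside its exons, held a GATA motif near the summit and had no overlapping peak of 9aa-Ins, a GATA2 protein with 9 residues inserted between its zinc fingers. These were 780 of the 6254 peaks called with GATA2, or 12.5% (95% Wilson interval 11.7 to 13.3), and 14.7% of the 5296 peaks called with GATA2 only. Peaks were chosen by position and sequence: the peak shared no base with a 9aa-Ins peak, its summit lay inside a protein-coding gene but outside exons and outside the promoter (from 2 kb upstream to 100 bp downstream of a transcript start), and WGATAR (W is A or T, R is A or G, on either strand) lay within 100 bp of the summit. They are called intronic WGATAR peaks here, although for 26 of them no intron of a basic transcript of the assigned host gene held the summit. The choice used the 9aa-Ins overlap and WGATAR, so neither the absence of 9aa-Ins nor the presence of the motif is a finding. Of the whole GATA2 list, 84.7% had no 9aa-Ins overlap. Among intronic peaks the share was 97.0% of 804 with WGATAR and 89.0% of 890 without it.

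The peaks came from CUT&Tag, in which an antibody tethers a transposase that cuts and tags DNA around the bound protein. The cells were hi-77-/- cells, progenitors from mouse fetal liver that Hoxb8 immortalized and that lack the -77 enhancer of Gata2. They were infected with a retrovirus carrying HA-tagged GATA2 or 9aa-Ins, grown for 3 d and sorted for GFP, and anti-HA antibody was used on 2 libraries per protein. Both proteins were therefore supplied by a retrovirus in an immortalized line. The labels also describe 3 libraries made with anti-GATA2 antibody, whose peaks are not used here. The cell type cannot be checked from peak lists. In the methods of the study, all sorted cells of 1 protein went into a pool from which both libraries were drawn, and the peak list of each protein is labelled as merged from both libraries. The single background in each list points to 1 call on summed reads, so that a pileup would be the sum over both libraries, while the methods describe merging of peaks called in each replicate. This was not settled by the files. A list was thus 1 value per peak, without SD, and a difference between the proteins has no replicate check. No test was made. Intervals are 95% intervals that cover counting error over peaks only (Wilson for a share, Newcombe for a difference of shares, given in percentage points), and peaks near each other or in 1 gene are not independent.

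GATA factors are zinc finger proteins that recognise WGATAR, and GATA2 is needed for hematopoietic stem and progenitor cells. Introns of blood genes hold many of the enhancers through which GATA factors act. In progenitors GATA2 often binds beside TAL1, a basic helix-loop-helix protein that recognises the E-box CANNTG as a dimer with an E protein, and beside RUNX1 and ETS factors such as ERG and FLI1. The E-box and WGATAR can form a composite element with a short spacer, a layout known from several GATA-regulated enhancers.

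A pair of layouts recurred among the intronic WGATAR peaks. The first was the composite of an E-box followed by WGATAR on the same strand. The elements below have a spacer of 7 or 8 bp and belong to high peaks or to genes of the hematopoietic lists described later. Each sequence is mm10 (GRCm38), read 5′ to 3′ on the strand given, with the E-box and every complete WGATAR in capitals, and the reads are the pileup at the summit of its peak. In the Cd34 element a second WGATAR lies in the spacer. Gm20388 is a read-through gene model, so the intron given for its element is uncertain.
Zfpm1 intron 1, chr8:122284656-122284694, plus strand, 79 reads: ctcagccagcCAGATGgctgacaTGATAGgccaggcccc
Gm20388 intron 1, chr8:122719874-122719913, plus strand, 81 reads: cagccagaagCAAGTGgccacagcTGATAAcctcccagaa
Dapp1 intron 3, chr3:137958062-137958101, plus strand, 59 reads: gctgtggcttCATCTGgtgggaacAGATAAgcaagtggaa
Gse1 gene body, chr8:120370145-120370183, minus strand, 48 reads: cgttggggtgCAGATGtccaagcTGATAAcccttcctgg
Cd34 intron 1, chr1:194943670-194943709, plus strand, 26 reads: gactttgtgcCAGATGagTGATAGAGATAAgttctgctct
Rac2 intron 1, chr15:78571856-78571894, plus strand, 19 reads: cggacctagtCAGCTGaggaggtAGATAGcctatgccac
Runx1 intron 2, chr16:92715871-92715910, minus strand, 18 reads: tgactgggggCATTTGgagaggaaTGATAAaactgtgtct
Irf2 intron 1, chr8:46765149-46765188, minus strand, 16 reads: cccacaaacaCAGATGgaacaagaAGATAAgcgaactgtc

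The second layout was a cluster of WGATAR without a composite, seen in several of the highest peaks. The sequences run from 10 bases before the first to 10 bases after the last WGATAR within 100 bp of the summit, and a motif on the opposite strand reads as its reverse complement, such as TTATCT. In Evi5 a pair of motifs shares an A. The Zfpm1 sequence comes from its intron 3, in another peak than the composite above.
Mdga1 intron 1, chr17:29859946-29860134, plus strand, 98 reads: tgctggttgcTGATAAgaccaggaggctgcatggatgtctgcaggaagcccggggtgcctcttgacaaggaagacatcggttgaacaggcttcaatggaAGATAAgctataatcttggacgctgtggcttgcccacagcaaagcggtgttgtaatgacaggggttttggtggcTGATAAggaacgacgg
Evi5 intron 17, chr5:107759296-107759326, minus strand, 85 reads: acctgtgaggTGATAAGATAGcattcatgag
Gse1 gene body, chr8:120371864-120371947, minus strand, 78 reads: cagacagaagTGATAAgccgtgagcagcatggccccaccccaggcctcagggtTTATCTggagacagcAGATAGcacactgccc
C77080 intron 1, chr4:129234679-129234765, plus strand, 66 reads: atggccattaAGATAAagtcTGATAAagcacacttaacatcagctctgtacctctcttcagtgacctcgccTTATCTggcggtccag
Zfpm1 intron 3, chr8:122309451-122309583, minus strand, 31 reads: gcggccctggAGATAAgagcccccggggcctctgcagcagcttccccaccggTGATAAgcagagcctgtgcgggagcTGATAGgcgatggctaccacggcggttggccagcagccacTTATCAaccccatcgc
Itgb7 intron 2, chr15:102225386-102225543, minus strand, 20 reads: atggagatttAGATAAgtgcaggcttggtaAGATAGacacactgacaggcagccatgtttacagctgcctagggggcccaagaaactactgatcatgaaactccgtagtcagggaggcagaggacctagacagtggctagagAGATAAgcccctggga
Mitf intron 1, chr6:97888011-97888166, plus strand, 19 reads: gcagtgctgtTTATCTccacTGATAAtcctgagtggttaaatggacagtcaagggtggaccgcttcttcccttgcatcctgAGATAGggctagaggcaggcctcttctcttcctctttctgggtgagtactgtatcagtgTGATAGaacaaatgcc

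A single WGATAR was the commonest case. Examples are the highest intronic WGATAR peaks of Erg and Runx1, which encode transcription factors of hematopoietic stem cells, and the lower of the pair in Meis1, a homeobox partner of HOX proteins.
Erg intron 2, chr16:95439390-95439415, plus strand, 45 reads: tgttcagcccTGATAAcccatctggg
Runx1 intron 2, chr16:92822435-92822460, plus strand, 30 reads: ttgctgggacTGATAAagtaccatcc
Meis1 intron 8, chr11:18925134-18925159, plus strand, 15 reads: atgacagcccAGATAAgatgaaaagg

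Intronic WGATAR peaks were higher than intronic GATA2-only peaks without the motif. The interval of the difference between intronic WGATAR peaks and WGATAR peaks between genes included 0. The summit pileup (how many reads cover the summit) was recovered from the deposited fold enrichment. Intronic WGATAR peaks had a median pileup of 15 reads (quartiles 13 and 21, range 9 to 98), and 9 reads was the lowest pileup in the list. The 792 intronic GATA2-only peaks without WGATAR had a median of 13 reads (quartiles 11 and 16), and the highest had 64. A pileup of 20 reads or more was reached by 30.3% of intronic WGATAR peaks (236 of 780) and by 13.9% without WGATAR (110 of 792). The difference was 16.4 points (12.3 to 20.4). The rule against 9aa-Ins overlap had removed 98 intronic peaks without WGATAR and 24 with it. Of those 24, 87.5% reached 20 reads. The part of this rule in the height difference was not tested. The 598 GATA2-only WGATAR peaks outside genes had a median of 16 reads, and 30.6% reached 20 reads. Their share differed from that of the intronic WGATAR peaks by -0.346 points (intronic minus intergenic, -5.27 to 4.52). At 30 reads or more stood 10.9% of intronic WGATAR peaks and 2.02% of the intronic peaks without the motif.

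**Figure D1:**
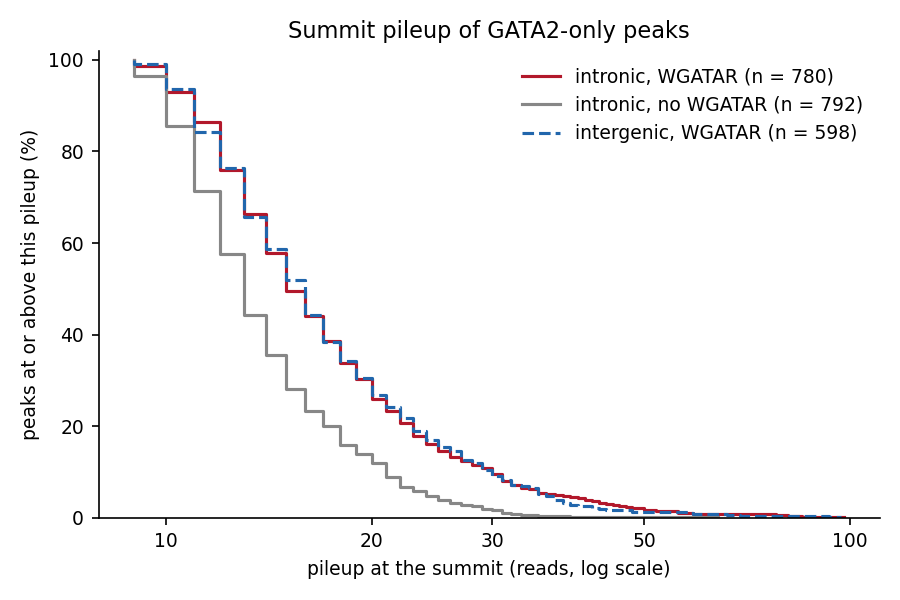
Share of GATA2-only peaks (y axis, percent) at or above a given summit pileup (x axis, reads, log scale) for intronic peaks with WGATAR, intronic peaks without it and intergenic peaks with it. The curves of both WGATAR classes run together, with 30.3% and 30.6% at 20 reads or more, above the 13.9% of intronic peaks without WGATAR.

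Base composition also differed between the classes. The median GC content within 100 bp of the summit was 50.2% in intronic WGATAR peaks, 56.2% in intronic peaks without WGATAR and 49.8% in intergenic WGATAR peaks. Positions 10 kb apart along the genome that lay in introns by the same definition served as a genomic baseline (94548 windows of the same length). Their median GC was 42.8%, and 35.7% held WGATAR. Repeats, marked by lower case in the assembly, covered over 50% of the summit window in 2.69% of intronic WGATAR peaks and in 21.6% of the baseline windows. The part of base composition in the results below was not tested. The 24 intronic WGATAR peaks that did overlap a 9aa-Ins peak had a median pileup of 29 reads (24 to 38), but sharing was used in the choice of peaks and no comparison is drawn.

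WGATAR was repeated within many of the summits. A single motif was present in 492 of the 780 peaks (63.1%), 2 in 226 (29%), 3 in 47 (6.03%) and 4 or more in 15 (1.92%). Because every peak was required to hold 1, the fair comparison is with windows that also hold at least 1. A second motif was present in 36.9% of the peaks and in 14.2% of the 465 flanking windows with WGATAR, taken 2 kb to either side of the summits, a difference of 22.7 points (17.9 to 27.2). It was 7.26 points (0.601 to 12.5) where the windows were shortened to 50 bp on each side, and 15.3 points (10.8 to 19.7) with WGATAR sought in the whole peak. Against the 33750 baseline windows with WGATAR the difference was 12.8 points (9.44 to 16.3), and against intergenic WGATAR peaks it was -2.88 points (-8.05 to 2.29).

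The form of the motif differed from the genome at large. AGATAA made up 43.5% of the 1146 WGATAR in intronic WGATAR peaks (40.7 to 46.4) and 29.4% of those in the baseline windows, 29.9% in the flanks. TGATAG made up 11.1%, against 17.8% in both the baseline and the flanks. The base after the motif was G in 42.2% of cases (39.3 to 45.1), against 20.7% in the baseline and 22.2% in the flanks, as in the AGATAAG of several sequences above. A T before the motif was found in 13.8%, against 25.3% and 23%. Intergenic WGATAR peaks had AGATAA in 42.3% of their motifs. The motif nearest to the summit lay on the strand of the host gene in 49.5% of peaks (46.0 to 53.0).

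The nearest WGATAR lay a median of 35 bp from the summit, against 50 bp from the centre in flanking windows with WGATAR and 42 bp in baseline windows with WGATAR. It was within 50 bp in 68.6% of peaks and 51.0% of flanks, a difference of 17.6 points (12 to 23.1), and within 25 bp in 35.6% and 29.7%, a difference of 5.96 points (0.549 to 11.2) that was 3.85 points (-1.99 to 9.52) for peaks at a q-value of 1e-10 and 11.3 points (7.54 to 15) with WGATAR anywhere in the peak. The baseline windows had it within 25 bp in 32% and within 50 bp in 58.9%. A window with more motifs has a nearer one, and the peaks held more motifs. Among the 506 peaks with a whole WGATAR inside the 50 bp to each side of the summit (distances elsewhere are to the centre of the motif), compared with flanks chosen in the same way, the share within 25 bp was 4.52 points lower (difference -4.52, -13.3 to 4.60). Within 10 bp it was found in 13.8% of peaks, 11.6% of flanks and 14.1% of baseline windows. Of the peaks, 23 had the nearest motif more than 90 bp from the summit (median pileup 14 reads). The 37 intronic GATA2-only peaks left out because their nearest motif lay just beyond the limit, up to 107 bp, also had a median of 14 reads.

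**Figure D2:**
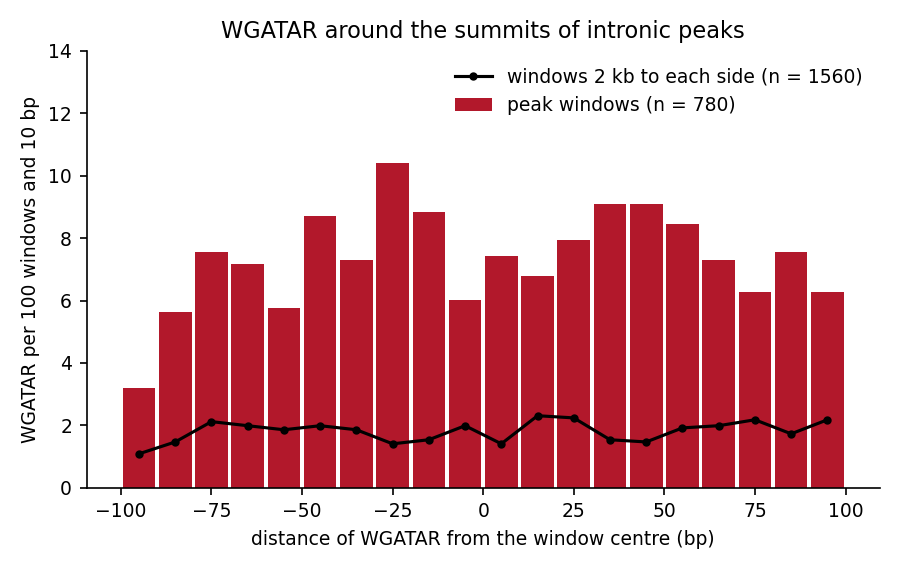
Number of WGATAR per 100 windows in each 10 bp of distance from the window centre (x axis, bp) for the 780 intronic WGATAR peaks, centred on their summits (bars), and for 1560 windows 2 kb to each side (line). The peaks hold 3.21 to 10.4 per 100 windows in a bin and the flanks 1.09 to 2.31. The peaks were required to hold the motif, so the shape and not the height is informative, and the outermost bins hold fewer possible positions.

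A composite of E-box and WGATAR with a spacer of 6 to 14 bp was present in 92 of the 780 peaks (11.8%, 9.72 to 14.2). Flanking windows with WGATAR held it in 3.23%, 8.57 points less (5.67 to 11.3), baseline windows with WGATAR in 5.39%, 6.41 points less (4.31 to 8.87), and all baseline windows in 1.92%. E-boxes of any position were present in 67.8% of peaks and 66.7% of flanks with WGATAR, a difference of 1.15 points (-4.17 to 6.59). Intergenic WGATAR peaks held the composite in 13.0%, and the difference from intronic peaks was -1.25 points (-4.85 to 2.23).

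The spacing was narrow. A spacer of 7 bp was found in 26 peaks (3.33%, 2.28 to 4.84) and of 8 bp in 27 peaks (3.46%, 2.39 to 4.99), against 0.593% and 0.542% of baseline windows with WGATAR. No other spacer from 0 to 30 bp was present in more than 10 peaks. Spacers of 7 to 9 bp occurred in 62 peaks (7.95%) and 1.64% of the baseline windows, a difference of 6.31 points (4.61 to 8.43). Spacers of 15 to 23 bp, a range as wide as 6 to 14 bp, occurred in 6.67% and 5.32%, a difference of 1.35 points (-0.215 to 3.34). At intergenic WGATAR peaks 7 to 9 bp spacers occurred in 7.19%, a difference of 0.758 points (-2.15 to 3.54).

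**Figure D3:**
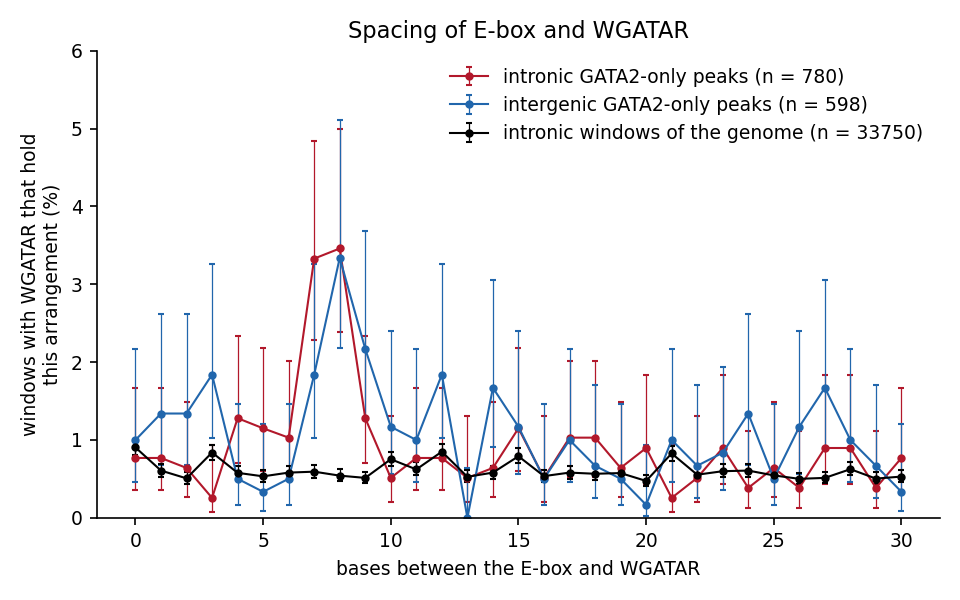
Share of windows with WGATAR (y axis, percent) in which an E-box lies upstream on the same strand at the spacing on the x axis (bases between both motifs), with 95% Wilson intervals as error bars. The 780 intronic WGATAR peaks rise to 3.33% at 7 bp and 3.46% at 8 bp, the 598 intergenic ones to 3.34% at 8 bp, while the 33750 baseline windows stay below 1% at every spacing.

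A few core forms made up most of the E-boxes in these composites. Of the 63 E-boxes at 7 to 9 bp from WGATAR, 19 read CAGCTG, 16 CAGATG and 11 CATCTG on the strand of WGATAR. These 3 forms, picked out after their counts were seen, made up 73.0% (61.0 to 82.4) in the peaks and 23% (19.7 to 26.7) of 561 such E-boxes in the baseline. Zfpm1, Gse1, Cd34 and Irf2 carry CAGATG, Rac2 CAGCTG and Dapp1 CATCTG, while the read-through interval of Gm20388 carries CAAGTG and Runx1 CATTTG.

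Motifs of other progenitor factors were also more frequent. The ETS motif AGGAAG was present in 43.5% of intronic WGATAR peaks, 34.6% of intronic peaks without WGATAR, 25.1% of the flanks and 21.7% of the baseline windows. It exceeded the intronic peaks without WGATAR by 8.87 points (4.04 to 13.6) and the flanks by 18.4 points (14.3 to 22.5). The RUNX motif TGTGGT was present in 31%, against 19.9%, 18.3% and 14.6% in the same order, with differences of 11.1 points (6.78 to 15.3) from peaks without WGATAR and 12.8 points (9.03 to 16.6) from the flanks. The first of these was 5.90 points (1.27 to 10.7) with WGATAR required within 50 bp and 7.13 points (2.75 to 11.4) with WGATAR anywhere in the peak. The AP-1 motif TGANTCA, bound by FOS and JUN proteins, was present in 11.4%, which exceeded the flanks by 5.90 points (3.50 to 8.53). Its difference from intronic peaks without WGATAR was 2.32 points (-0.687 to 5.34), and 5.46 points (2.47 to 8.30), an interval without 0, with WGATAR anywhere in the peak. All motifs were searched on both strands.

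The promoter-type GC box GGGCGG, bound by SP factors, ran the other way. It was present in 7.05% of intronic WGATAR peaks and 26.5% of intronic peaks without WGATAR, a difference of -19.5 points (-23 to -15.9), beside 3.33% of the flanks and 1.99% of the baseline. The higher GC content of peaks without WGATAR, given above, moves with this difference, and so does their position nearer to gene starts, given below. Neither part was tested. The C/EBP motif TTNNGNAA was present in 28.8% of the peaks, 4.49 points fewer than in the flanks (difference -4.49, -8.37 to -0.486), and in 40.3% of the baseline. Against the 23.1% of intronic peaks without WGATAR the difference went the other way, at 5.74 points (1.40 to 10.1). The STAT motif TTCNNNGAA was present in 4.87% and the CCAAT box in 20.1%, with intervals of the differences from the flanks that include 0. The baseline held them in 6.94% and 26.5%. For ETS, RUNX, AP-1, C/EBP, STAT, GC box and CCAAT box alike, the interval of the difference between intronic and intergenic WGATAR peaks included 0. The largest of these differences was 2.16 points, for ETS (-3.11 to 7.38).

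**Figure D4:**
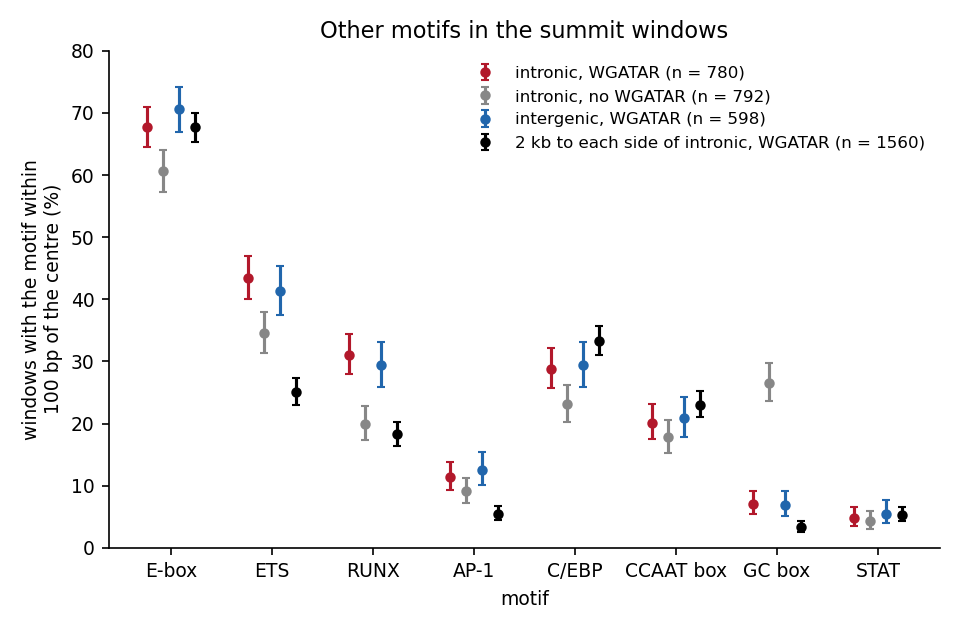
Share of windows (y axis, percent) that hold each motif within 100 bp of the summit or centre, for intronic peaks with and without WGATAR, intergenic peaks with WGATAR and windows 2 kb to each side of the intronic WGATAR peaks, with 95% Wilson intervals. ETS (43.5%) and RUNX (31%) stand above the flanks in intronic WGATAR peaks, while the GC box is most frequent in intronic peaks without WGATAR (26.5%).

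Within the intronic WGATAR peaks, height varied with the number of motifs. Of the 288 peaks with 2 or more WGATAR, 39.9% reached 20 reads, against 24.6% of the 492 with 1, a difference of 15.3 points (8.55 to 22.1). Of the 62 peaks with 3 or more, 62.9% did, against 27.4% of the other 718, a difference of 35.5 points (22.6 to 46.8). Their median pileups were 21 and 15 reads. The share with 2 or more motifs did not rise evenly with height. It was 35.8% among the 106 peaks of 9 to 11 reads, 29.1% at 12 to 14 reads, 32.6% at 15 to 19 reads, 45.7% at 20 to 29 reads and 54.1% among the 85 peaks of 30 reads or more.

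Spacing was also related to height. A composite with a spacer of 7 to 9 bp went with 20 reads or more in 43.5% of 62 peaks, against 29.1% of the rest, a difference of 14.4 points (2.34 to 27.2). For the wider spacer range of 6 to 14 bp the difference was 8.83 points (-1.07 to 19.6). A motif ending in A (AGATAA or TGATAA) was associated with 32.3%, against 23.3% where AGATAG or TGATAG alone was present, a difference of 8.99 points (1.31 to 15.8). An ETS motif (-2.38 points, -8.78 to 4.15), a RUNX motif (2.26 points, -4.57 to 9.41) and an AP-1 motif (0.0911 points, -9.18 to 10.8) gave intervals that include 0. A nearest motif within 25 bp (6.09 points, -0.628 to 13) and the first intron (-1.39 points, -7.80 to 5.15) did too. AGATAA, a subset of the motifs ending in A, went with 33.3%, against 26.7% without it, a difference of 6.57 points (0.0948 to 12.9). Of the 21 peaks whose summit window was mostly soft-masked repeat sequence 9.52% reached 20 reads, against 30.8% of the other 759, a difference of -21.3 points (-29 to -1.66). In all, 12 such splits by sequence or position were made, and the intervals are not adjusted for their number.

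The peaks lay farther from gene starts than intronic peaks without WGATAR, and nearer than the baseline. The median distance of the summit from the gene start was 31.1 kb (quartiles 9.26 and 72.8 kb). It was 9.31 kb for intronic peaks without WGATAR (quartiles 1.02 and 46.5 kb) and 60.9 kb for the baseline (19.5 and 181 kb). Within 10 kb of the gene start were 26.2% of the intronic WGATAR peaks, 51.4% of those without WGATAR and 14.5% of the baseline. The first intron, where regulatory elements are common, held 336 of the 780 peaks (43.1%) and 435 of the 792 without WGATAR (54.9%), a difference of -11.8 points (-16.7 to -6.91). Where an intron of a basic transcript of the host gene could be assigned, which left out 26 of the peaks, the first intron held 44.6% of the peaks and 26.4% of the baseline, a difference of 18.1 points (14.6 to 21.7). Chromosome X held 6 of the peaks (0.769%), beside 0.959% of all GATA2 peaks and 4.38% of the baseline positions.

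The peaks fell in 625 genes, 2.85% of the 21938 protein-coding genes. A single peak was found in 517 of these genes, and the other 108 held 263 of the peaks (33.7%). Host genes were long, with a median of 70.8 kb against 17.4 kb over all genes, and 7.91% of genes longer than 50 kb were hosts. For 37 peaks the summit lay in several overlapping genes, and the gene with the nearest start was taken. A GATA2 peak also stood at the promoter of 178 host genes (28.5%, 25.1 to 32.1), against 14.8% of all genes, 16.6% of genes longer than 50 kb and 23.4% of the 564 genes that held only intronic peaks without WGATAR, a difference of 5.08 points from the last (0.0761 to 10). A 9aa-Ins peak stood at the promoter of 34 host genes (5.44%, 3.92 to 7.51), against 3.70% of all genes. The promoter had both proteins at 33 of the 178 host genes with a GATA2 promoter peak (18.5%, 13.5 to 24.9) and at 22.1% of the 3257 such genes overall. At these 33 genes 9aa-Ins was detected at the start of a gene whose intronic WGATAR peak was called with GATA2 only.

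The 20 highest peaks ranged from 47 to 98 reads. Of these, 14 held 2 or more WGATAR, 4 held a composite and 10 lay in a first intron. The highest stood in Mdga1, a membrane-anchored adhesion protein, at chr17:29859614-29860470 in intron 1, with 98 reads, a fold enrichment of 67.6 and 3 WGATAR. Gypc, which encodes glycophorin C of the red cell membrane, held a peak of 88 reads and others of 32 and 16 reads, all in its intron 1. The peak of 85 reads in Evi5, a GTPase-activating protein gene, lay in the last of 17 introns at chr5:107759074-107759967. The next were an interval of Gm20388 (81 reads), Zfpm1 (79), Gse1 (78), C77080 (66) and Dapp1, an adaptor of phosphoinositide signalling (59). Usp40 and Cuedc1 had 56 reads each, followed by Btbd9 (55), the amino acid transporter gene Slc16a10 (52), Ahi1 (51), Ctif and Tox2 (50 each), Vwa7 (49), Tnfaip8 (48), a second peak of Gse1 (48) and Tmem131 (47).

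Several genes carried strings of these peaks. Gse1, which encodes a protein of the LSD1 corepressor complex, held 7, with 78, 48, 42, 35, 30, 25 and 12 reads, more than any other gene. It spans 353 kb, and the peaks lay in its gene body but in no intron of its basic transcripts. Each of the 7 summits also lay inside Gm20388, a read-through gene model that spans Zfpm1 too. Zfpm1, which encodes FOG1, the cofactor that binds GATA factors directly, held 5 in a gene of 55.1 kb, with 79, 31, 31, 21 and 20 reads. All 5 Zfpm1 peaks had 2 or more WGATAR and reached 20 reads, and the highest, in intron 1 at chr8:122283194-122285997, was also the widest of the 780 peaks (2804 bp, median 342 bp). Both genes also had a GATA2 and a 9aa-Ins peak at the promoter, and the nearest 9aa-Ins peak was 1.34 kb from the highest Zfpm1 peak. Ahi1, the neighbour of Myb, held 5 with 51, 30, 28, 21 and 12 reads between 55.8 and 113 kb from its start.

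Gm20388 is a read-through gene model of 4435 kb that covers many other genes, so the 6 peaks given to it (81, 32, 23, 19, 13 and 11 reads) lie outside the ordinary protein-coding genes there and their intron is uncertain. Lrmda held 5 peaks of 14 to 27 reads over 1036 kb, and Ccdc12 5 of 15 to 22 reads in 1 intron. Arhgap6, a GTPase-activating protein gene, held 4 of the 6 peaks on chromosome X, with 44, 26, 26 and 10 reads. Tnfaip8 held 4 with 48, 19, 12 and 12 reads, while Fnbp1 and the plexin gene Plxnc1 held 4 each with at most 18 reads.

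**Figure D5:**
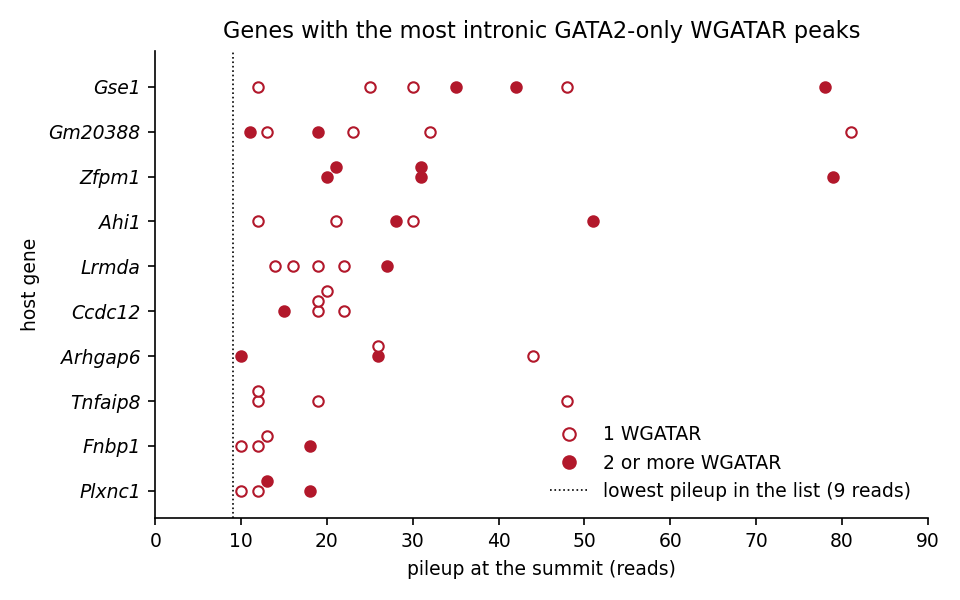
Summit pileup (x axis, reads) of each intronic WGATAR peak in the 10 genes with the most such peaks (y axis), with filled points for 2 or more WGATAR and open points for 1. All 5 peaks of Zfpm1 are filled and at 20 reads or more, while those of Fnbp1 and Plxnc1 stay at 18 reads or fewer. Points at close values are shifted upward.

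Genes of hematopoiesis were followed in 12 lists, of which 7 had a member that hosted such a peak. Of 235 genes in any list, 31 did (13.2%), against the 2.85% of all genes and the 7.91% of genes longer than 50 kb given above. The part of gene length in these shares was not tested, and the lists were chosen with results of these data known. These 31 genes held 44 of the peaks, of which 25 had 2 or more WGATAR, with a median of 15.5 reads. Among stem and progenitor transcription factors 10 of 35 genes did (28.6%, 16.3 to 45.1), at a median gene length of 47.3 kb. Besides Zfpm1, Erg held 3 peaks (45, 20 and 9 reads), and Runx1 (30 and 18 reads) and Meis1 (31 and 15 reads) held 2 each, none of these 7 in a first intron. The lower Runx1 peak, 110 kb from the gene start, had 5 WGATAR and the composite shown above. Cbfa2t3, a corepressor that acts with TAL1 (15 reads), Ikzf1 (17), Ikzf2 (13), Tcf4 (13), Fli1 (12) and Elf1 (11) held 1 each.

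Adhesion and migration genes hosted peaks in 8 of 23 cases (34.8%, 18.8 to 55.1), at a median gene length of 38.9 kb. Cd34, a sialomucin of stem and progenitor cells, had a peak of 26 reads in intron 1, 4.95 kb from the start. The integrin genes Itga4 (22 reads), Itgb7 (20) and Itgb3 (15) had 1 peak each, with 2, 3 and 3 WGATAR. The tetraspanin gene Cd9 held 2 (24 and 10 reads), and Fermt3 (17), Cd47 (15) and Pecam1 (11) held 1.

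Of 41 signalling genes 7 hosted a peak (17.1%, 8.53 to 31.3), at a median gene length of 64.1 kb. Prkca, a protein kinase C gene, held 3, with 33, 21 and 20 reads, and Plcg2, a phospholipase C gene, held 2 with 12 and 11 reads. Rac2, a small GTPase of blood cells, had 19 reads, the kinase gene Jak1 15, the lipid phosphatase gene Inpp5d 13, the ubiquitin ligase gene Cblb 11 and Prkce 10. Among mast cell and basophil genes 4 of 20 did (20%, 8.07 to 41.6): Mitf, a transcription factor of mast cells, with 19 reads and 4 WGATAR, Alox5 and Slc18a2 with 15 reads each and Il4 with 14. The Il4 peak lay in the gene body but in no intron of its basic transcripts. Of 26 erythroid and megakaryocyte genes 2 hosted a peak (7.69%, 2.14 to 24.1), Zfpm1 and Abcb10, a mitochondrial transporter gene (14 and 10 reads). Of 22 innate immune genes 1 did, Irf2 with 16 reads (4.55%, 0.807 to 21.8). The intervals of these last lists include the 2.85% of all genes. The ETS genes Erg, Elf1 and Fli1, given above, were 3 of 15 (20%, 7.05 to 45.2).

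In 5 other lists no listed gene hosted such a peak. These were cytokine, lipid and IgE receptors (0 of 24, which allows a share of up to 12.5%, that is 3 counts of the total), chromatin regulators (0 of 27, up to 11.1%), the B lineage (0 of 20, up to 15%) and genes that the study text names as activated (0 of 9, up to 33.3%) or repressed by GATA2 (0 of 25, up to 12%). The lists are short and hand-picked, and a count of 0 holds for their members, not for the gene class. It covers only peaks that met the definition of intronic WGATAR peaks. The study describes GATA2 occupancy at intronic sites of a gene that it gives as repressed. Chosen after their values were seen, Il9r, a cytokine receptor gene outside the list, hosted a peak of 15 reads with 2 or more WGATAR and a composite. The list of activated genes does not hold every gene that the study gives as activated, and Il9r is one of the others. Likewise the chromatin regulator genes Arid1b (20 reads), Bptf (18) and Baz2b (2 peaks, the higher with 17), as well as Gse1, are hosts outside the list. Median gene lengths of these lists ran from 22.3 to 77.8 kb. The short lists cannot be told apart from the 2.85% of all genes.

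The distance to the nearest 9aa-Ins peak is limited from below by the choice of peaks without overlap, so values close to the summit are a description. Within 1 kb of the summit 2 of the 780 peaks had a 9aa-Ins peak, within 10 kb 31 (3.97%, 2.81 to 5.59) and within 50 kb 111 (14.2%). Intronic peaks without WGATAR had one within 10 kb in 7.70%, a difference of -3.73 points (-6.10 to -1.41), beside their more frequent position near gene starts. Intergenic WGATAR peaks had one within 10 kb in 3.01% and within 50 kb in 12%, values near those of the intronic ones. The smallest gaps between an intronic WGATAR peak and a 9aa-Ins peak were 311 bp in Eno1, 547 bp in Prtn3 and 761 bp in Cdk6, at peaks of 16, 16 and 12 reads. Another GATA2 summit lay within 2 kb of 14.1% of the peaks and within 10 kb of 35.0%.

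The depth of the 9aa-Ins list set what its absence can show. The genome-wide background of the caller was 0.464 reads with GATA2 and 0.455 with 9aa-Ins, and 9 reads was the lowest pileup in both. At equal fold enrichment on the 9aa-Ins background, 769 of the 780 peaks (98.6%, 97.5 to 99.2) would have passed the lowest pileup called there. With the same scaling, a signal at 50% of the GATA2 pileup would have passed at 263 peaks (33.7%). At the other peaks a signal at 50% of the GATA2 pileup was below the lowest pileup called, while one nearer to the GATA2 pileup could still have passed, and no value of 9aa-Ins below its threshold was analysed here.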

How the data were processed

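The authors aligned the CUT&Tag reads with Bowtie2 to mm10, dropped duplicates and blacklisted regions and called peaks with MACS3 at a q-value of 1e-06. Versions were not given in the sources used here. Of the 7 libraries, the 4 anti-HA ones are in the deposited peak lists, 1 list per protein with both replicates merged. The deposited score is 10 times the −log10 q-value, the deposited fold enrichment is a ratio of summit pileup plus 1 to background plus 1, and the deposited −log10 q-value is that of the authors' caller (the p-values were not used).

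Pileups were recovered from the steps of the fold enrichment, and 100% came out whole, to within 0.000642 reads. The background, 1 value per list, was the measure of depth, as read totals were not used here. Annotation was GENCODE M21 basic (45152 transcripts of 21938 protein-coding genes) and sequence was GRCm38.p6, read with Python 3.11.15, numpy 2.4.6 and scipy 1.17.1. The motif search, overlaps and intervals were tested on simulated data. The sites, the 12 gene lists and the motifs were chosen with earlier results of these data known. Genes named are the hosts of the 20 highest peaks, the 10 hosts with the most peaks and list genes that host a peak, and 1 of them is not reported here. Il9r, Arid1b, Bptf, Baz2b and the genes at the smallest gaps to a 9aa-Ins peak (Eno1, Prtn3, Cdk6) were named after their values were seen. Sequences come from peaks named by height or in list genes, outside exons. No test was run, because the files hold no replicates. In all, 0 columns belonged to other samples.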

Additional observations from a re-analysis of the deposited data

How the results depend on the processing

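No paired analysis was possible because both replicates of a protein stand in 1 merged list, and for the same reason no replicate could be left out. Of 131 alternative values, 118 stayed the same by the measure used (within the interval of the reported value, or within 1.5 times for a count), 12 moved and 1 reversed. At a q-value of 1e-10 the median pileup was 17.0 reads and the share of hosts with a GATA2 promoter peak 25%, and the interval of the excess of a nearest motif within 25 bp (3.85 points, -1.99 to 9.52) included 0. With a whole WGATAR required inside the 50 bp to each side of the summit, 506 peaks met the definition, the excess over flanks of peaks with 2 or more WGATAR was 7.26 points, that of a nearest motif within 25 bp became -4.52, and the RUNX excess over intronic peaks without WGATAR was 5.90 points. With WGATAR anywhere in the peak, a rule that a wide peak meets more easily, the excess at 20 reads was 23.6 points. That of 2 or more WGATAR was 15.3, that of a nearest motif within 25 bp 11.3 and that of AP-1 5.46. The AP-1 interval (2.47 to 8.30) no longer included 0. The excess was 8.88 points at 30 reads in place of 20, and 17.6 points for a nearest motif within 50 bp. A 9aa-Ins peak lay within 50 kb of 14.2%. The cause of these changes was not tested. By the measure used, a q-value of 1e-08, a promoter to 3 kb and a reciprocal overlap of 50% moved none of the values. Summits within 200 bp as the rule for sharing and removal of soft-masked summits moved none either. The same held for all GENCODE transcripts, a setting added after seeing the data. With it 700 peaks met the definition, the first-intron difference was -8.10 points and the share of hosts with a GATA2 promoter peak 32.1%.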
